A study of Mus musculus with 24 samples.

Results

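The endothelial cells that line brain capillaries form the blood-brain barrier, and the RNA of 10 genes that mark these cells or build the barrier was followed here in the hippocampus of aged mice. The genes were Cldn5, Slc2a1, Abcb1a, Pecam1, Mfsd2a, Flt1, Kdr, Tek, Slco1c1 and Vwf. They were picked by name from the 49568 gene symbols counted in every library. All 10 had counts in all 24 libraries, the lowest being 130 reads, and all 10 were among the 20187 genes that passed the filter on low counts. No member was therefore lost to that filter.

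The mice were aged males of the C57-Bl/6J background, 21 to 23 months old, and poly(A)-selected RNA from individual hippocampi was sequenced. Wild-type (WT) mice were compared with mice carrying a knock-in aspartate-to-alanine change in the endogenous MSK1 gene, Rps6ka5, which removes the activity of its N-terminal kinase domain (kinase dead, KD) in every cell and from conception. MSK1 is a nuclear kinase that phosphorylates the transcription factor CREB and histone H3. The homozygous KD mice and their WT counterparts were bred as separate lines. In each genotype a standard-housed group (SH) was set beside an enriched group (EE) that had moved at 18 months into roomy cages fitted with tubes, ladders, toys and a wheel to run on, and shared with more cage mates than standard mice had. The 4 groups of 6 libraries were thus WTSH, WTEE, KDSH and KDEE, and running, group size and novelty cannot be told apart within the enriched condition. The study set aside 3 libraries, WTSH samples 4 and 7 and KDSH sample 6, which left 4 WTSH, 6 WTEE, 5 KDSH and 6 KDEE libraries. Unless said otherwise, levels are counts per 1000000 reads on genes (CPM) after TMM scaling of these 21 libraries, and the values of the 3 others are given apart.

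Gene counts per kept library ranged from 27410239 to 71907130 reads with a median of 47549989, and from 15800187 to 39585901 in the 3 left-out libraries. Reads on no gene or ambiguous between genes were set against these reads plus the gene counts. Their share was 13.1% to 21.3% in the kept libraries and 25.8% to 50.2% in the left-out ones. Rps6ka5 RNA was 23.3 ± 2.10 CPM in WTSH (SD, n = 4), 21.7 ± 3.95 in WTEE (n = 6), 24.1 ± 0.456 in KDSH (n = 5) and 23.7 ± 0.571 in KDEE (n = 6). A point mutation leaves the RNA in place, so this level is no check of the genotype labels. The labelled tissue held its neurons, with the summed level of 9 neuronal genes between 7262 and 10815 CPM. WTEE sample 10 held the lowest of these neuronal sums and stood apart from the other 20 libraries in a further way. In that library the median deviation from the group mean was 0.51 (log2) for genes with under 2000 bases of annotated exon and -0.28 for genes with over 6000 bases, a gap of -0.79. The gap lay between -0.20 and 0.25 in the other 20 libraries. Summed choroid plexus genes, 12 in number and led by transthyretin (Ttr), were between 2763 and 10033 CPM in 5 libraries (KDEE 12, WTEE 13, WTEE 10, WTSH 19 and KDEE 14) and between 32.2 and 128 CPM in the other 16. Summed RNA of 7 pituitary hormone genes reached 248 CPM in a KDSH library and was at most 28.2 CPM in the other groups.

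Brain capillaries are sealed by tight junctions and carry few vesicles, so nutrients and hormones cross through dedicated carriers while pumps return lipophilic compounds to the blood. Wnt ligands from neurons and glia keep this program switched on, and VEGF and angiopoietin receptors on the same cells govern growth and survival of the vessel. Whole hippocampus holds few endothelial cells among many neurons and glia, and a lower level of a marker could reflect fewer vessels or less RNA per endothelial cell, which cannot be told apart in bulk RNA.

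Set on a common scale per length, as CPM per kilobase of annotated exon (GENCODE M21, GRCm38), the 10 genes spanned more than an order of magnitude. Cldn5 led with 26.2 ± 8.27 (SD over 21 libraries), followed by Slc2a1 with 23.4 ± 3.53. These first genes were not separated, since Cldn5 exceeded Slc2a1 in 14 of 21 libraries. Slco1c1 at 10.2 ± 3.50 was below Slc2a1 in all 21 libraries, and Mfsd2a at 7.45 ± 1.74 was below Slco1c1 in 19. Abcb1a at 4.84 ± 0.505 and Flt1 at 4.28 ± 0.609 were the next, in that order in 18 libraries. Pecam1 (3.02 ± 0.255), Tek (2.31 ± 0.188) and Kdr (1.78 ± 0.330) followed, with Pecam1 above Tek in 21 libraries and Tek above Kdr in 20. Vwf was the lowest at 1.56 ± 0.522 and lay below Kdr in only 15 of 21 libraries, so those ranks overlapped. These means cover all 4 groups, and each gene is lengthened by every exon that any of its annotated isoforms uses.

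**Figure D1:**
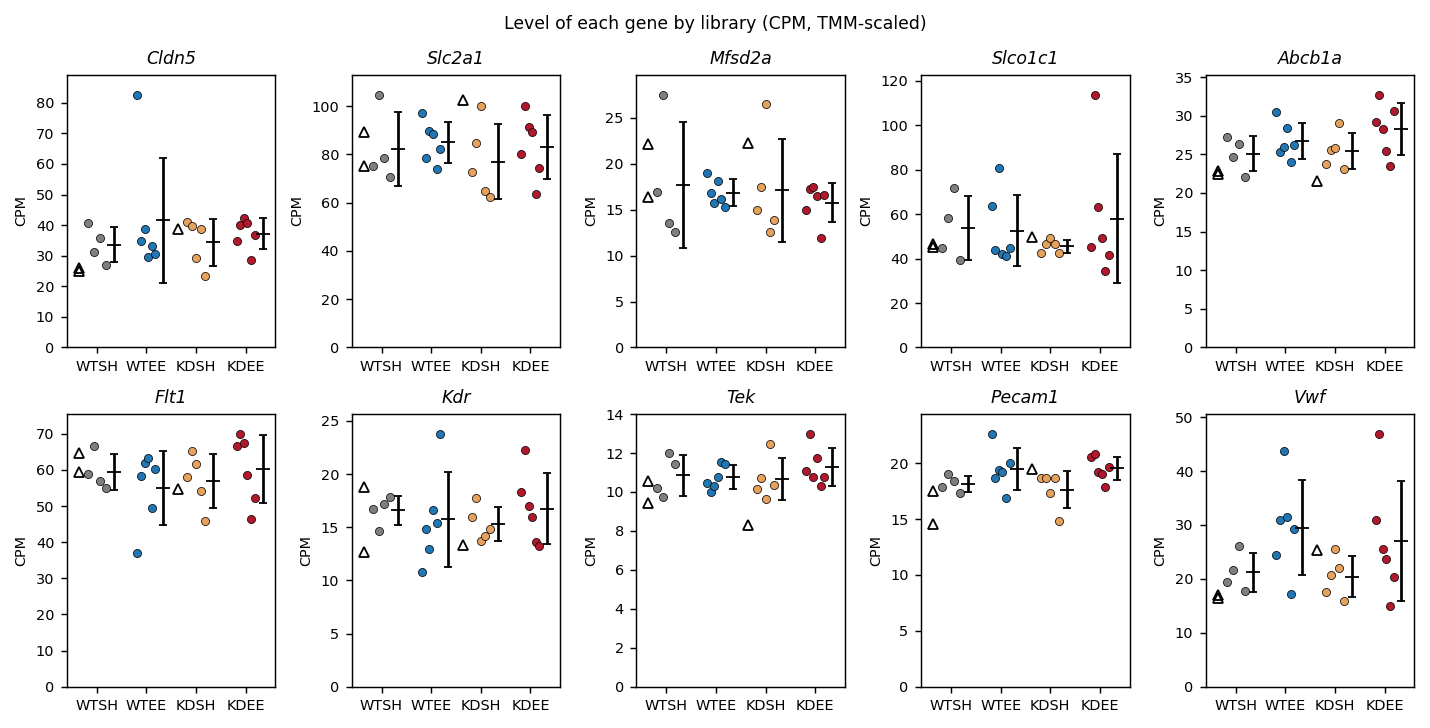
Level of each of the 10 genes (CPM, y axis from 0) in each library of the 4 groups. Filled circles are the 21 libraries that the study kept, black bars their mean ± SD, and open triangles the left-out libraries WTSH 4, WTSH 7 and KDSH 6, scaled together with all 24 libraries; the groups overlap for every gene, and single libraries such as WTEE 10 for Cldn5 at 82.6 CPM set much of the spread.

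Cldn5 encodes claudin-5, the tight junction strand protein that seals the space between brain endothelial cells. It is a single-exon gene of 1416 bases at chr16:18776847-18778262 on the plus strand. The 4 WTSH libraries had 40.5, 31.1, 35.8 and 27.1 CPM, and the 5 KDSH libraries 41.0, 39.6, 29.4, 38.7 and 23.5 CPM. WTEE ran from 29.6 to 82.6 CPM with a median of 33.95, and KDEE from 28.5 to 42.4 CPM with a median of 38.3. All 4 groups overlapped, and 1 library, WTEE sample 10 at 82.6 CPM, lay far above the remaining 5 WTEE libraries, of which the highest had 38.7 CPM. Enriched over standard WT mice differed by 0.30 (log2 fold change, SE 0.23) and by -0.01 without WTEE sample 10. In KD mice the difference was 0.11 (SE 0.22) and 0.0017 without KDSH sample 24.

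The same library was low in the long receptor genes. Relative to the mean of the other 5 WTEE libraries, WTEE sample 10 was higher by 1.31 (log2 CPM) for Cldn5 and lower for Flt1, with a difference of -0.66 on an exon length of 13504 bases, and for Kdr, with -0.60 on 9030 bases. Rps6ka5, with 11932 bases, had -0.75. The genes of 2250 to 6228 bases (Mfsd2a, Slc2a1, Tek, Slco1c1, Abcb1a and Pecam1) lay between -0.04 and 0.39. Vwf, at 16064 bases the longest member, had -0.26, inside the spread of the other 5 libraries. Whether transcript length accounts for the Cldn5 value in that library was not tested.

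**Figure D2:**
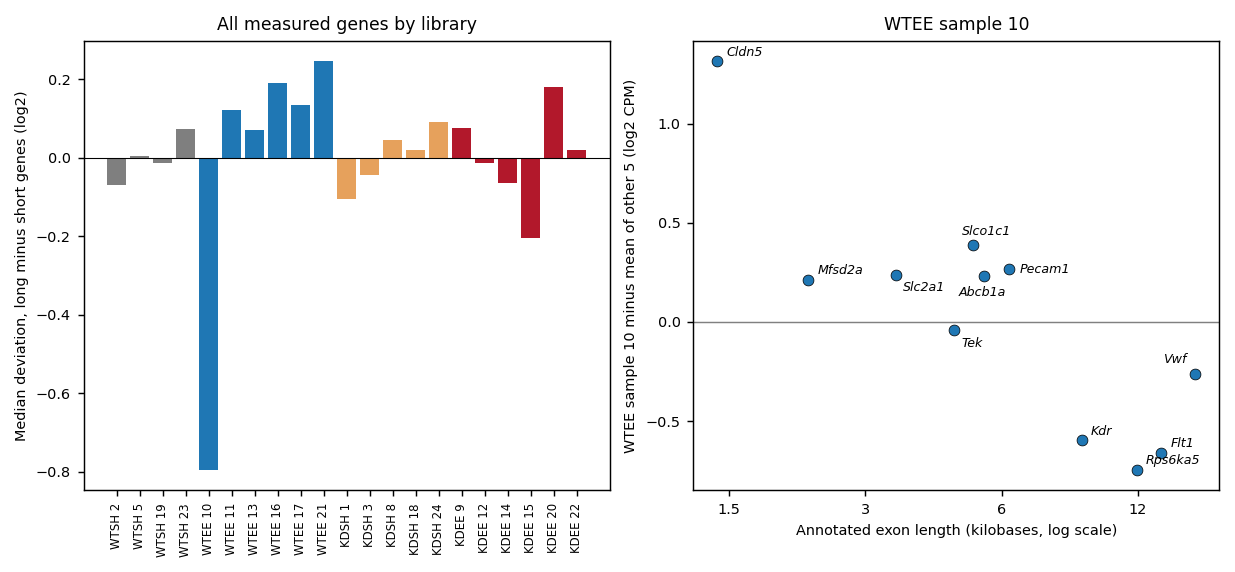
Left, the median deviation from the group mean of genes with over 6000 bases of exon minus that of genes with under 2000 bases (log2, y axis) in each of the 21 libraries; WTEE 10 stands at -0.79 and the other 20 between -0.20 and 0.25. Right, log2 CPM in WTEE sample 10 minus the mean of the other 5 WTEE libraries (y axis) against annotated exon length (kilobases, log axis) for the 10 genes and Rps6ka5, with Cldn5 highest at 1.31 and Rps6ka5 lowest at -0.75.

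Slc2a1 encodes the glucose transporter GLUT1, which carries glucose across the barrier, and Mfsd2a encodes the carrier of lysophosphatidylcholine lipids that also holds vesicle transport down. Slc2a1 lies at chr4:119108711-119137983 on the plus strand and Mfsd2a at chr4:122946850-122961188 on the minus strand. Of the Slc2a1 exons 105 bases overlap the minus-strand gene Gm12868, and counting without strand cannot tell their reads apart. Slc2a1 levels were 75.4, 104.7, 78.7 and 70.6 CPM in WTSH and 72.6, 84.6, 100.02, 64.9 and 62.4 CPM in KDSH. Its WTEE range was 74.0 to 97.1 CPM with a median of 85.5, and its KDEE range 63.6 to 99.9 with a median of 84.7. The groups overlapped throughout. Mfsd2a levels were 16.98, 27.5, 13.6 and 12.5 CPM in WTSH and 14.9, 17.5, 26.5, 12.6 and 13.9 CPM in KDSH. It ran from 15.3 to 19.02 CPM in WTEE (median 16.5) and from 11.9 to 17.5 in KDEE (median 16.6). The highest Mfsd2a levels were in WTSH sample 5 and KDSH sample 8, the libraries in which Slc2a1 was highest of its group as well, and standard housing therefore had the wider spread of Mfsd2a, with SDs of 6.84 and 5.57 CPM against 1.44 and 2.09 CPM in the enriched groups.

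Slc2a1 and Mfsd2a had the highest correlation of the 45 pairs of members. Over the 21 libraries, after subtraction of each group's mean, Pearson's r was 0.85 (permutation p = 6.00e-05, adjusted 0.0027) and Spearman's rho 0.82 (adjusted permutation p = 0.0081). Without WTSH 5 and KDSH 8, the libraries farthest from the median, r was 0.74, and leaving out any single library gave 0.80 to 0.88. In the 3 left-out libraries Mfsd2a had the same order as Slc2a1, with 16.4 and 75.0 CPM in WTSH 4, 22.2 and 89.5 in WTSH 7, and 22.3 and 102.5 in KDSH 6. Mfsd2a was nearly equal in WTSH 7 and KDSH 6, and an order of 3 libraries is too little to add support. All points come from different mice but share the library in which both genes were counted.

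The sequences before the transcription starts of Slc2a1 and Mfsd2a are shown (RefSeq, GRCm38.p6, 5′ to 3′ on the gene's strand). Capitals mark ACGTG on either strand, the core of the element that hypoxia-inducible factors bind. The Slc2a1 stretch is chr4:119108495-119108713, from 250 bases before the RefSeq start to the end of the motif, whose last 3 bases lie inside the first exon of GENCODE. The Mfsd2a stretch is chr4:122961189-122961438, the 250 bases before the start.

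Slc2a1: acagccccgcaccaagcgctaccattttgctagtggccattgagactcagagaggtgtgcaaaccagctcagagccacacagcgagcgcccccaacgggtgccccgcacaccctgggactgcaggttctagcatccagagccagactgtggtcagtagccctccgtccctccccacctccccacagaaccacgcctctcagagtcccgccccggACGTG

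Mfsd2a: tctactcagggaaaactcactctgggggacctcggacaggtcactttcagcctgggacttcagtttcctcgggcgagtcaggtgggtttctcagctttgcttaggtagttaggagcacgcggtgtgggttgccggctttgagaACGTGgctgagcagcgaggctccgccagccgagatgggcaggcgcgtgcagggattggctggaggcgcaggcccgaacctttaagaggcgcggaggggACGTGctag

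Of the 8 members with a promoter sequence in the reference, only Slc2a1 and Mfsd2a had ACGTG in the 250 bases before the start, which was present in 16.6% of 32851 such windows. The match lay 36 to 32 bases before the start in Slc2a1, and 107 to 103 and 9 to 5 bases before it in Mfsd2a. For Abcb1a the window lay at its RefSeq start, 92986 bases before the GENCODE start, and the bases before the latter were not searched. The search also covered the GC box GGGCGG, found before Slc2a1, Kdr, Flt1 and Cldn5 (32.7% of windows). CCAAT was found before Mfsd2a, Slco1c1 and Cldn5 (33.8%), and TATAAA before Flt1 (12.4%). The motifs were picked with the sequences in view, and a match is a description of letters rather than of a bound site. Whether ACGTG bears on the covariation of Slc2a1 and Mfsd2a was not tested.

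**Figure D3:**
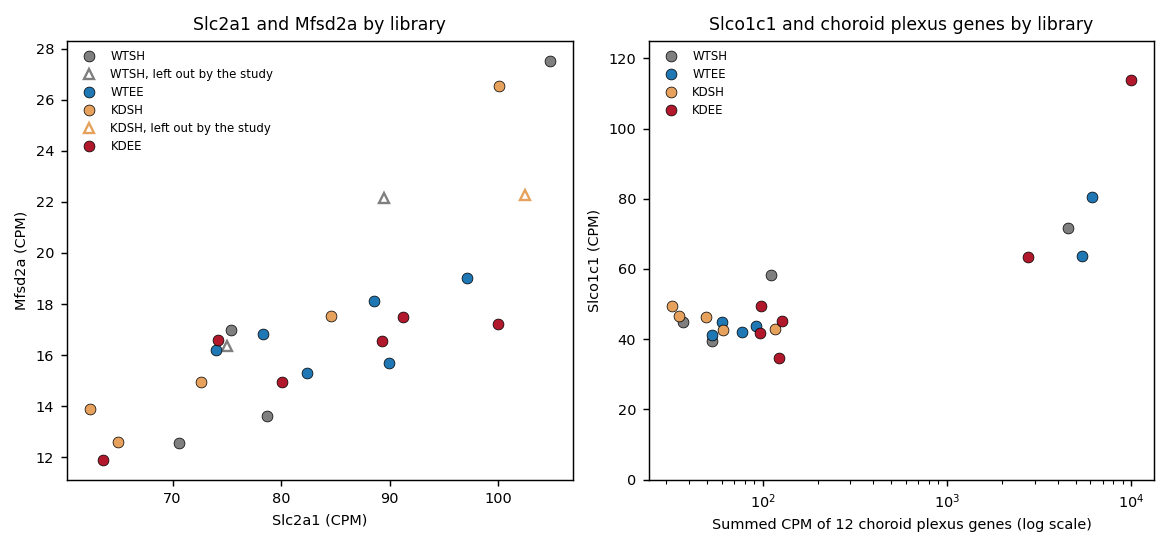
Left, Mfsd2a against Slc2a1 (CPM) in each library, colored by group, with open triangles for the 3 left-out libraries scaled with all 24; WTSH 5 (104.7 and 27.5 CPM) and KDSH 8 (100.02 and 26.5 CPM) lie at the upper right. Right, Slco1c1 (CPM) against the summed CPM of 12 choroid plexus genes (log axis) in the 21 kept libraries; the 5 libraries above 2763 CPM on the x axis hold the 5 highest Slco1c1 levels.

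Slco1c1 encodes OATP1C1, the carrier that brings the thyroid hormone thyroxine into the brain, and it is present in choroid plexus epithelium as well as in brain endothelium. The gene lies at chr6:141524368-141570177 on the plus strand. WTSH libraries had 44.9, 58.4, 71.7 and 39.5 CPM and KDSH libraries 42.8, 46.5, 49.5, 46.4 and 42.5 CPM. WTEE ran from 41.1 to 80.6 CPM with a median of 44.3, and KDEE from 34.6 to 113.8 CPM with a median of 47.3. The groups overlapped, and the highest library in each group but KDSH was 1 of the 5 rich in choroid plexus RNA. In those 5 libraries Slco1c1 was 63.5 to 113.8 CPM, and in the other 16 it was 34.6 to 58.4 CPM, with no overlap. No other member separated these sets of libraries, and the share of all genes that did was not computed. The summed fibroblast and meningeal genes separated them as well, with 247 to 538 CPM against at most 152 CPM.

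The 5 libraries were divided unevenly, with 2 in WTEE, 2 in KDEE, 1 in WTSH and none in KDSH. Within the 16 libraries low in choroid plexus RNA, Slco1c1 had r = 0.08 with the choroid plexus sum (permutation p = 0.85, adjusted 0.95). That sum spanned only 32.2 to 128 CPM there, so this r cannot decide whether Slco1c1 follows choroid plexus RNA. The KDEE over KDSH difference of Slco1c1 was 0.35 (log2, SE 0.25) and moved to 0.04 without KDEE sample 12 and to -0.14 with the mean choroid plexus level as a covariate. Averaged over genotypes, the difference between enriched and standard housing was 0.16 (SE 0.18), and became 0.0085 without KDEE sample 12 and -0.14 with the covariate. The direction of Slco1c1 between housing conditions therefore turned with that adjustment.

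Abcb1a encodes a P-glycoprotein, the efflux pump that returns drugs to the blood. It lies at chr5:8660077-8748575 on the plus strand, 553 bases of its exons overlap the minus-strand gene Gm42686, and reads were counted without regard to strand. Its neighbor Abcb1b is a close copy, so the division of reads between them is uncertain. Abcb1a stood at 27.3, 24.7, 26.3 and 22.1 CPM in WTSH and at 23.7, 25.6, 25.8, 29.0 and 23.1 CPM in KDSH. Enriched ranges were 23.98 to 30.5 CPM in WTEE (median 26.1) and 23.5 to 32.7 CPM in KDEE (median 28.7), overlapping both standard groups. The housing difference averaged over genotypes was 0.12 with a 95% interval of -0.01 to 0.25.

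Flt1, Kdr and Tek are the receptor tyrosine kinases among the 10 genes. Flt1 (VEGFR1) binds VEGF tightly and acts largely as a trap for it, Kdr (VEGFR2) is the main signaling receptor for VEGF, and Tek (TIE2) is the receptor of the angiopoietins. Flt1 lies at chr5:147561604-147726011 and Kdr at chr5:75932827-75978458, on the minus strand, and Tek at chr4:94739289-94874976 on the plus strand. Flt1 had 58.7, 66.6, 57.0 and 55.1 CPM in WTSH and 58.1, 65.1, 61.6, 54.1 and 45.8 CPM in KDSH. It spanned 37.0 to 63.3 CPM in WTEE (median 59.1) and 46.4 to 69.9 CPM in KDEE (median 62.6). The lowest Flt1 level was that of WTEE sample 10, and the groups overlapped.

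Kdr had 16.7, 14.6, 17.2 and 17.8 CPM in WTSH and 15.998, 17.8, 13.7, 14.2 and 14.9 CPM in KDSH. Its enriched libraries reached further in each direction, from 10.8 to 23.8 CPM in WTEE (median 15.1) and from 13.2 to 22.2 CPM in KDEE (median 16.5). Tek was among the steadiest members, with 10.2, 9.75, 12.01 and 11.4 CPM in WTSH and 10.1, 10.7, 9.65, 12.5 and 10.4 CPM in KDSH. Tek ran from 10.002 to 11.6 CPM in WTEE (median 10.6) and from 10.3 to 12.97 CPM in KDEE (median 10.9). For all 3 receptors the standard and enriched ranges overlapped in each genotype, and the housing difference averaged over genotypes was -0.02 for Flt1 (95% interval -0.21 to 0.18), 0.03 for Kdr (-0.21 to 0.26) and 0.03 for Tek (-0.09 to 0.15).

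MSK1 acts on CREB, which binds the cyclic AMP response element TGACGTCA. Flt1 was the only 1 of the 8 members with a promoter sequence that held these letters in the 250 bases before its start, and 1.55% of the 32851 windows held them. For Abcb1a the window was again that at its RefSeq start. The Flt1 window is chr5:147726012-147726261 (RefSeq, GRCm38.p6, minus strand, 5′ to 3′), with the element in capitals, 81 to 74 bases before the start.

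Flt1: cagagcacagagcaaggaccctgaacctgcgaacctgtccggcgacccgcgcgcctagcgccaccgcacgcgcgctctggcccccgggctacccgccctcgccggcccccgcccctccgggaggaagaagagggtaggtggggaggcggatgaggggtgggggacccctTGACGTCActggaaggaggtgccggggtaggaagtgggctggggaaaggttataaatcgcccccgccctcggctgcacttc

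Flt1 in KDSH differed from WTSH by -0.06 (log2, 95% interval -0.35 to 0.23) and in KDEE from WTEE by 0.13 (-0.12 to 0.38). Neither difference passed the test, with adjusted p = 1 and 0.957 (edgeR quasi-likelihood test, Benjamini-Hochberg). The matched letters do not say that CREB was bound there.

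Pecam1, an adhesion molecule at endothelial cell borders that platelets and leukocytes also carry, lies at chr11:106654217-106750628 on the minus strand. It had 17.8, 19.01, 18.4 and 17.3 CPM in WTSH and 18.7, 18.6, 17.3, 18.7 and 14.8 CPM in KDSH. WTEE libraries ran from 16.9 to 22.6 CPM (median 19.3) and KDEE libraries from 17.9 to 20.8 CPM (median 19.4). The enriched medians were above the standard ones in each genotype, but the ranges overlapped. Pecam1 had the smallest spread of the 10 genes, with a within-group SD of 0.11 (log2 CPM) against a median of 0.21 over all 20187 genes.

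Vwf encodes von Willebrand factor, the clotting protein that endothelial cells store and secrete. It lies at chr6:125546774-125686679 on the plus strand. Vwf levels were 19.5, 21.7, 26.0 and 17.7 CPM in WTSH and 17.6, 20.7, 25.6, 22.01 and 15.9 CPM in KDSH. They ran from 17.2 to 43.7 CPM in WTEE, with a median of 30.2, and from 14.9 to 46.9 CPM in KDEE, with a median of 24.7. In 4 WTEE and 2 KDEE libraries Vwf exceeded the highest standard library, and in the other enriched libraries it lay inside or below the standard range, so the groups overlapped. Together with Slco1c1 (SD 0.43) Vwf had the widest within-group spread, 0.42 on the log2 scale.

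The first comparison asked how enrichment bore on these genes in each genotype. In WT mice 5 of the 10 genes were higher and 5 lower in enriched than in standard housing, with log2 fold changes from -0.11 (Flt1) to 0.48 (Vwf) and a median of 0.02. In KD mice 9 of 10 were higher, from -0.12 (Mfsd2a) to 0.41 (Vwf), with a median of 0.12. Without KDEE sample 12 the Vwf value in KD mice was 0.18. The median of all 20187 genes was 0.01 in WT and 0.00 in KD mice, and 51.5% and 50.4% of all genes were higher. No member passed the test in either comparison, by the edgeR quasi-likelihood test at a Benjamini-Hochberg adjusted p under 0.05 with an absolute log2 fold change over 0.38. The background for that count is that 0% of all genes passed in either genotype. DESeq2's Wald test called no member either, where it called few genes of all (counts in the last section). At an unadjusted p under 0.05 in edgeR there were 0 members in each genotype, where 6.55% of all genes in WT and 11.6% in KD mice fell below that level.

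Averaged over genotypes, 8 of 10 genes were higher in enriched mice, where 51.9% of all genes were higher, and their median difference was 0.10 against 0.01 for all genes. No member was called, and 0.00495% of all genes were, a single gene, the immunoglobulin heavy chain gene Ighm, named here because it was the only gene called, at 0.58 (SE 0.08, adjusted p = 0.0099 by edgeR's quasi-likelihood test). Vwf and Pecam1 were the 2 members with an unadjusted p under 0.05, a level that 18.9% of all genes reached. Vwf was higher by 0.44 (SE 0.17, 95% interval 0.09 to 0.80, unadjusted p = 0.017, adjusted p = 0.23 in edgeR). Pecam1 was higher by 0.12 (SE 0.05, 95% interval 0.01 to 0.23, unadjusted p = 0.029, adjusted p = 0.24 in edgeR). Over the single-library omissions Vwf stayed between 0.33 and 0.50 and Pecam1 between 0.10 and 0.15. The intervals of Slc2a1, Flt1, Kdr, Tek, Abcb1a, Mfsd2a and Pecam1 lay inside 0.38 in either direction, those of Cldn5, Slco1c1 and Vwf did not.

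RNA of other cells moved alongside. All 5 red cell genes were higher in enriched mice, with a median of 1.46, and Hbb-bs was higher by 1.43 (adjusted p = 0.17, edgeR). Their summed level was 56.1 to 72.8 CPM in WTSH, 37.0 to 77.5 in KDSH, 56.2 to 392 in WTEE and 72.6 to 242 in KDEE. All 12 choroid plexus genes were higher as well, with a median of 2.30, and with their mean level as a covariate Vwf was 0.27 (unadjusted p = 0.087) and Pecam1 0.09 (unadjusted p = 0.089). The part of red cell RNA in these differences was not tested.

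**Figure D4:**
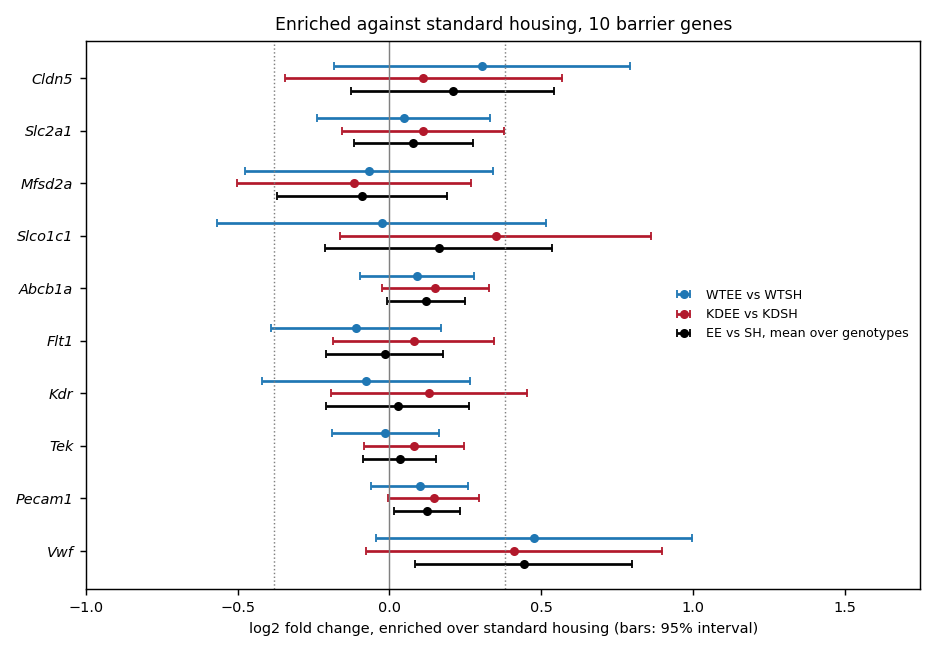
Log2 fold change of enriched over standard housing (x axis) with its 95% interval for each gene in WT mice (blue), KD mice (red) and averaged over genotypes (black). Dotted lines mark 0.38 in either direction; in the average the intervals of Vwf (0.09 to 0.80) and Pecam1 (0.01 to 0.23) lie above 0, and none of the 10 genes passed the adjusted threshold.

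The second comparison asked whether these genes depended on MSK1 activity. Under standard housing KDSH differed from WTSH by -0.24 (Slco1c1) to 0.03 (Cldn5), with a median of -0.05, and the Slco1c1 value was -0.066 without WTSH sample 19. Under enrichment KDEE differed from WTEE by -0.16 (Cldn5) to 0.14 (Slco1c1), with a median of 0.04. No member was called in either, and none had an unadjusted p under 0.05, against 1% and 4.99% of all genes, while 0% of all genes were called. These shares, and those for the interaction below, are from edgeR. DESeq2's Wald test called no member either, but called many more genes in KDEE against WTEE (counts in the last section). Without WTEE sample 10 the Cldn5 value under enrichment turned from -0.16 to 0.16, and without KDEE sample 12 the Slco1c1 value turned from 0.14 to -0.17. The interaction, the enrichment effect in KD minus that in WT mice, ran from -0.19 (Cldn5) to 0.38 (Slco1c1) and reached no unadjusted p under 0.05 for a member, against 3.26% of all genes and 0% called. Its 95% intervals were wide, from -0.37 to 1.12 for Slco1c1 and from -0.17 to 0.26 for Pecam1. The Slco1c1 interaction was 0.068 without KDEE sample 12 and 0.21 without WTSH sample 19, and that of Cldn5 was 0.13 without WTEE sample 10 and -0.30 without KDSH sample 24. In these 4 comparisons of groups every member's ranges overlapped, while 0.986% of all genes were separated between WTEE and WTSH, 1.84% between KDEE and KDSH, 0.644% between KDSH and WTSH and 0.624% between KDEE and WTEE.

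The left-out libraries were read on a scale set with all 24 libraries. All 10 genes in WTSH 4 and in WTSH 7 lay inside the range of the 21 kept libraries, and in KDSH 6 this held for 8 of 10. The exceptions were Slc2a1, at 102.5 CPM above the kept maximum, and Tek, at 8.29 CPM below the kept minimum. Against their own group alone, WTSH 4 was low in Cldn5 (24.8 CPM), Pecam1 (14.6) and Vwf (16.5) and high in Kdr (18.8). WTSH 7 was low in Cldn5 (26.0), Kdr (12.7), Tek (9.45) and Vwf (16.97). KDSH 6 lay above the kept KDSH libraries in Slc2a1, Pecam1 (19.5 CPM), Slco1c1 (49.9) and Vwf (25.3) and below them in Abcb1a (21.5) and Tek, so Pecam1 and Vwf departed upward there and downward in WTSH 4.

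Covariation of the members between mice of a group was examined over their 45 pairs. Of these, 40 correlated positively after the group means were subtracted, with a median r of 0.30. By Pearson's r 8 pairs passed an adjusted permutation p under 0.05, by Spearman's rho 5, and 4 by each of them. No such counts were made for pairs of other genes, so the counts are not shown to be particular to these members. The 4 pairs that passed by each were Slc2a1 with Mfsd2a (above), Slc2a1 with Slco1c1 (r = 0.63, adjusted permutation p = 0.014, rho = 0.66 with 0.012), Abcb1a with Pecam1 (r = 0.68, adjusted permutation p = 0.011, rho = 0.69 with 0.016) and Flt1 with Vwf (r = 0.68, adjusted permutation p = 0.024, rho = 0.73 with 0.016). Without the 2 libraries farthest from the median of the first gene these r values were 0.72, 0.64 and 0.70.

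The other 4 pairs by Pearson's r were less even. Cldn5 with Pecam1 had r = 0.72 and Cldn5 with Abcb1a 0.55, with adjusted permutation p = 0.024 and 0.044, and rho was 0.59 (adjusted permutation p = 0.053) and 0.48 (0.11). Without WTEE 10 and KDSH 24 they had r = 0.34 and 0.38, so these relations rested on those libraries. Slco1c1 with Vwf had r = 0.77 (adjusted permutation p = 0.011, rho = 0.59 with 0.053) and 0.52 without WTEE 13 and KDEE 12. Slc2a1 with Vwf had r = 0.61 (adjusted permutation p = 0.024, rho = 0.57 with 0.055) and 0.66 without WTSH 5 and KDSH 8. Because the 5 libraries rich in choroid plexus RNA, WTEE 10 among them, stood apart, the pairs were also computed over the other 16. There r was 0.91 for Slc2a1 with Mfsd2a, 0.81 for Slc2a1 with Slco1c1, 0.79 for Slc2a1 with Flt1, 0.85 for Flt1 with Vwf and 0.65 for Slco1c1 with Vwf, with adjusted permutation p from 0.0099 to 0.013, and 10 pairs passed. Abcb1a with Pecam1 (r = 0.59, adjusted permutation p = 0.086), Cldn5 with Pecam1 (r = 0.60, adjusted permutation p = 0.10) and Cldn5 with Abcb1a (r = 0.44, adjusted permutation p = 0.31) no longer passed there. With WTEE 10 alone left out, r was 0.84 for Slc2a1 with Flt1 and 0.77 for Flt1 with Vwf. Cldn5 with Pecam1 (adjusted permutation p = 0.066) and with Abcb1a (0.15) did not pass then, and Abcb1a with Pecam1 did (0.020). Which of these libraries set the changes was not tested further.

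The 5 negative pairs were led by Tek with Mfsd2a (r = -0.46) and Cldn5 with Kdr (r = -0.32), and none of them passed. Without WTEE sample 10 the r of Cldn5 with Kdr turned to 0.089, and that of Cldn5 with Flt1, another negative pair, from -0.24 to 0.49. Kdr and Flt1 had r = 0.60 and Kdr and Tek 0.49, neither past the adjusted threshold.

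**Figure D5:**
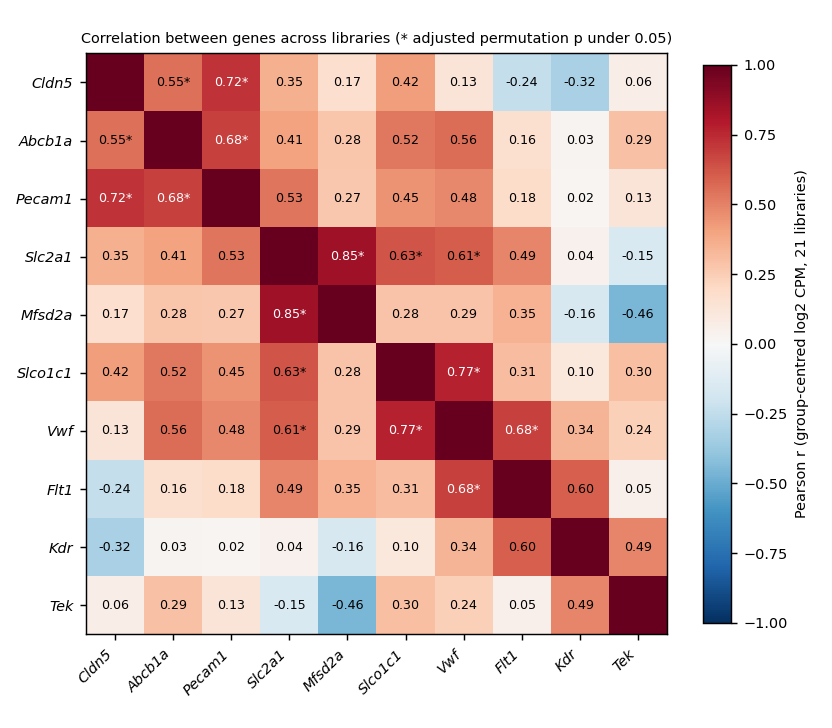
Pearson's r between each pair of the 10 genes over 21 libraries, on log2 CPM with each group's mean subtracted (color scale from -1 to 1, value in each cell, asterisk where the adjusted permutation p is under 0.05). Slc2a1 with Mfsd2a is highest at 0.85 and Tek with Mfsd2a lowest at -0.46.

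The genes outside the set that most resembled the mean of the 10 (each member scaled to its SD) over the 21 libraries were Cdh5 (r = 0.87), Nfam1 (0.86), Bgn (0.83), Stra6 (0.83) and Pltp (0.83). Cdh5 is VE-cadherin, the adhesion molecule of endothelial junctions, Stra6 is a retinol receptor at blood-tissue barriers and Pltp transfers phospholipids. All 18 other pan-endothelial genes correlated positively with the member mean (0.16 to 0.87, median 0.54), while 49.8% of all other genes did, with a median of 0.00. These are descriptions over libraries from which the ranking itself was taken.

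Genes of other vessel cells were compared as summed levels, 70 relations of the 10 members with 7 lists, adjusted together. By Pearson's r 5 of 70 passed. Pecam1 followed smooth muscle genes with r = 0.66 (adjusted permutation p = 0.034, rho = 0.69 with 0.021) and pericyte genes with r = 0.63 (adjusted permutation p = 0.047, rho = 0.58 with 0.094), and without WTEE 10 and KDEE 12 these were 0.45 and 0.48. Cldn5 had r = 0.76 with smooth muscle genes (adjusted permutation p = 0.034, rho = 0.61 with 0.070), 0.54 without the same libraries and 0.47 without WTEE 10 alone. WTEE 10 had a smooth muscle sum of 40.5 CPM against at most 24.9 in the other 5 WTEE libraries, besides the shift by exon length described above. The part of that shift in this relation was not tested. The remaining relations were those of Slco1c1 with choroid plexus genes and with fibroblast and meningeal genes. For these the libraries formed separate clusters and no pooled r is given. Within the 16 libraries low in choroid plexus RNA r was 0.08 and 0.07 (adjusted permutation p = 0.95 and 0.90). The sums spanned a narrow range there, so these values cannot decide whether Slco1c1 follows them.

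Other genes of the endothelial barrier gave a like picture. In the average over genotypes no gene of these lists was called, as for 0.00495% of all genes. Of 18 other pan-endothelial genes 13 were higher and 5 lower in enriched mice (median 0.14), with 3 higher and 0 lower at an unadjusted p under 0.05, where 9.77% and 9.13% of all genes were. Cd34, a surface sialomucin, differed by 0.17 (adjusted p = 0.19) and Itm2a by 0.22 (adjusted p = 0.25, edgeR), or by 0.13 without WTEE sample 10. Of 10 other tight junction genes 8 were higher and 2 lower (median 0.06), with 1 higher and 1 lower at an unadjusted p under 0.05. The higher 1 was Cldn11, which is also a myelin claudin, at 0.26 (adjusted p = 0.20, edgeR).

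Among 16 other barrier transporters 11 were higher and 5 lower (median 0.06). The glutamine carrier Slc38a5 differed most, at 0.69 (SE 0.17, unadjusted p = 4.79e-04, adjusted p = 0.17, edgeR). Its levels were 1.88 to 2.76 CPM in WTSH, 3.11 to 6.499 in WTEE, 2.08 to 3.41 in KDSH and 2.01 to 5.63 in KDEE. The WT groups were apart, as for 0.986% of all genes, and the KD groups overlapped. Slc38a5 was named for its small p, so this separation adds no support. No gene of this list had an unadjusted p under 0.05 in the interaction (smallest 0.11, edgeR). The organic anion carrier Slco1a4 differed by 0.20 (adjusted p = 0.24, edgeR). All 5 genes of vesicle transport were higher (median 0.15), none at an unadjusted p under 0.05 in this average, and Cav2, a caveolin, was 0.23 higher in KDEE than in KDSH (adjusted p = 0.35, edgeR).

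Of 17 Wnt pathway genes 10 were higher and 7 lower (median 0.04). Tspan12, a co-receptor for norrin, was 0.24 higher in KDEE than in KDSH (adjusted p = 0.34), and Ndp, norrin itself, 0.25 higher in the average (adjusted p = 0.22, edgeR). Of 15 tested genes of VEGF and angiopoietin signaling 9 were higher and 6 lower (median 0.02). Nrp1, a VEGF co-receptor, differed by -0.20 (adjusted p = 0.26, edgeR), and the peptide hormone gene Apln had an interaction of 0.45 (adjusted p = 0.58, edgeR). Among 10 arterial and venous genes 8 were higher (median 0.11), while the arterial ephrin Efnb2 differed by -0.24 (adjusted p = 0.19, edgeR) and Hey1, a Notch target, by 0.12 (adjusted p = 0.21, edgeR). The 3 leukocyte adhesion genes tested were higher (median 0.42), with Icam1 at 0.42 (SE 0.12, adjusted p = 0.19, edgeR) on levels of at most 5.46 CPM.

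Cells around the vessel gave the following. Of 10 pericyte genes 7 were higher (median 0.06), with Vtn at 0.37 (adjusted p = 0.23, and 0.21 without WTEE sample 10) and Pdgfrb 0.21 higher in KDEE than in KDSH (adjusted p = 0.40, edgeR). Of 5 tested smooth muscle genes 4 were higher (median 0.32), with Myl9 at 0.32 (adjusted p = 0.24, edgeR) and at 0.20 without WTEE sample 10. Of 10 fibroblast and meningeal genes 9 were higher (median 0.39). Astrocytes, whose end-feet cover the capillaries, had 6 of 9 genes higher (median 0.08), with Gfap at 0.28 (adjusted p = 0.19, edgeR), and the end-foot water channel Aqp4 was 0.26 higher in KDEE than in WTEE (adjusted p = 0.34, edgeR). All 7 microglial genes were higher (median 0.13), and 3 of 9 neuronal genes were (median -0.05).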

How the data were processed

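Hippocampal poly(A) RNA-seq was available as whole-number read counts per gene for 24 libraries. The authors made the deposited counts by trimming paired reads with Skewer, aligning them with STAR 2.5 to GRCm38 with Ensembl gene models and counting uniquely mapped reads with HTSeq 0.6.1p1 without regard to strand, after quality control with FastQC 0.11.3. Rows that named no gene were left out of library sizes. Of these, reads on no gene and reads ambiguous between genes took 13.1% to 50.2% of their sum with the gene counts. No other such rows entered that share. Here, genes were filtered with filterByExpr, scaled by TMM and tested in 1 model of 4 groups with edgeR 4.0.16 (quasi-likelihood F test, Benjamini-Hochberg adjustment over 20187 genes; called at adjusted p under 0.05 and absolute log2 fold change over 0.38) in R 4.3.3, on the 21 libraries that the study kept. DESeq2 1.42.0 was an alternative. CPM are counts per 1000000 of TMM-scaled library size; log2 CPM used a prior count of 2.

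Correlations between genes used log2 CPM minus the group mean and 100000 permutations within groups (two-sided; the smallest p they can give is 1e-05), with Benjamini-Hochberg adjustment over 45 pairs. The relations with summed lists, the division of libraries at 1000 CPM of choroid plexus RNA and the comparison by exon length were chosen after seeing the data. Coordinates, exon lengths and overlaps came from GENCODE M21 (GRCm38) and promoter letters from RefSeq (GRCm38.p6); 8 of 10 genes had a promoter sequence there. No 2 of the 24 libraries held identical counts. The fits were tested on simulated data.

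The 10 genes and the lists of other genes were chosen with earlier results of these data known. Named in the text were the 10 genes, Rps6ka5, the 5 genes most like their mean, and examples drawn from the 2 genes of each other list with the smallest unadjusted p in any of 6 comparisons, with any gene called and defining markers of other cell types where given. Not every gene that this rule picks is reported here. The labels give individual mice as replicates. Housing was given to whole cages, and the labels do not name the cage of a mouse. Mice of a group may have shared a cage, and the intervals and p-values treat them as independent. Precision is limited by 4 to 6 libraries per group.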

Additional observations from a re-analysis of the deposited data

Results flagged for a closer look

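Each of the 10 genes and Rps6ka5 was examined for a library far from the rest of its group, in 44 sets of 4 to 6 libraries, by the gap to the nearest library as a share of the group's range. Chance marks about 1 in 20 such sets, and 3 were marked. Cldn5 in WTEE sample 10 was 82.6 CPM, with a gap of 0.83 of the range. Rps6ka5 in the same library was 13.8 CPM, the lowest of its group, with a gap of 0.77. Slco1c1 in KDEE sample 12 was 113.8 CPM, with a gap of 0.64. That library had the largest choroid plexus sum of the 21, at 10033 CPM.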

How the results depend on the processing

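No member was called under any alternative (1600 values over 6 comparisons), and 77 of these values turned in direction. No paired analysis was possible because the sample numbers run from 1 to 24 without a number shared between groups. Samples 1 to 8 were all from standard housing and samples 9 to 17 all from enriched housing, and later numbers were mixed. The labels do not say what the numbers stand for. An effect that ran with them could not be told apart from housing in samples 1 to 17. Leaving out each library in turn, the scaling of DESeq2, no filter on low counts and no fold threshold kept each count of called genes below 7. DESeq2's Wald test called more genes, 2 in WTEE against WTSH, 14 in KDEE against KDSH, 118 in KDEE against WTEE, 41 in the average over genotypes and 20 in the interaction. With all 24 libraries 1 gene was called in WTEE against WTSH and 15 in the average, and with only the groups compared 1 in KDEE against KDSH. Leaving out 1 library gave 0 to 1 genes in WTEE against WTSH (1 without WTEE 13) and 0 to 6 in the average (0 without WTSH 5 or WTSH 19, where Ighm lost its call, and 6 without WTEE 21). The number of pairs past the adjusted threshold ran from 4 (without KDSH 24, KDEE 12 or KDEE 20) to 13 (without WTEE 13), against 8.

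With 24 libraries Tek and Slco1c1 turned in WTEE against WTSH, to 0.013 and 0.034. With the choroid plexus covariate Cldn5 and Slco1c1 turned in KDEE against KDSH, to -0.086 and -0.14, Slco1c1 in KDSH against WTSH, to 0.032, and in the average, to -0.14, and the meningeal genes Igf2 and Bmp6 in KDEE against KDSH, to -0.17 and -0.038. Where leaving out 1 library turned a direction, the ranges in WTEE against WTSH were -0.010 to 0.40 for Cldn5, -0.020 to 0.18 for Slc2a1, -0.20 to 0.23 for Mfsd2a, -0.23 to 0.012 for Kdr, -0.060 to 0.041 for Tek and -0.19 to 0.15 for Slco1c1. In KDEE against KDSH Mfsd2a ran from -0.21 to 0.10, and in KDSH against WTSH Cldn5 from -0.060 to 0.14. In KDEE against WTEE Cldn5 ran from -0.24 to 0.16 and Slco1c1 from -0.17 to 0.30, and in the interaction Cldn5 from -0.30 to 0.13. In the average Mfsd2a ran from -0.15 to 0.062, Flt1 from -0.050 to 0.035 and Kdr from -0.050 to 0.075. The cause of these shifts was not tested. The lowest count of a member in any library was 130 reads. The intervals given above show the precision reached with 4 to 6 libraries per group if mice are taken as independent. The smallest detectable difference was not computed.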
